A study of Mus musculus with 6 samples.

Results

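The genes described here encode the cytosolic ribosomal proteins, and they were taken as every protein-coding gene whose symbol is Rpl or Rps followed by a number, together with Rplp0, Rplp1, Rplp2 and Rpsa. Pseudogenes with symbols ending in -ps, the Rps6k kinases and Rps19bp1 were left out. The rule found 85 genes among 55426 features, of which 77 encode components of the ribosome (31 of the small subunit, 43 of the large subunit and 3 of its stalk) and 8 are paralog copies of a component, such as Rpl22l1 and Rps27l. The symbols came from GENCODE M21 on GRCm38, and all coordinates below are on that build.

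RNA was sequenced from pancreatic stellate cells (PSCs), the fibroblast precursors of the pancreas, in 6 samples. The PSCs were primary lines of low passage isolated from wild-type mice and carried the strain label C57BL/6. In every sample they sat in Matrigel in a transwell insert above organoids of mT3, a pancreatic ductal adenocarcinoma (PDAC) line derived from KPC mice, for 48 h. The only difference between the groups was oxygen, at 21% in the 3 normoxic samples and at 1% in the 3 hypoxic samples, so PSCs cultured alone were not part of the comparison.

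A ribosome is built from ribosomal RNA and a single copy of most ribosomal proteins, and the stalk, which recruits elongation factors, is the exception with several copies of its acidic proteins. Cells therefore make these proteins in matched amounts and degrade the excess. Most of this matching is done by translation, because mRNAs of ribosomal proteins start with a run of pyrimidines, the 5′ terminal oligopyrimidine (TOP) motif, that places them under the control of mTORC1 and the RNA-binding protein Larp1. Hypoxia is known to restrain mTORC1 and protein synthesis. The measurements here are mRNA levels and do not include translation.

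The libraries held between 24749601 and 31925054 counts, and 16207 genes passed the filter on low counts. All 11 fibroblast and stellate cell markers were detected, with summed levels of 28437 to 35637 CPM (counts scaled to a common library size) in normoxic and 30469 to 35314 in hypoxic samples. That sum is mostly that of collagens, and 4 of these markers were higher, among them Pdpn (0.99 on the log2 scale) and Pdgfra (0.82), and 5 were lower, among them Lum (-2.17) and Thy1. Summed macrophage markers were at 866 to 1524 CPM in normoxic and 446 to 790 CPM in hypoxic samples, and 6 of 10 were lower at 1% O2. Of 8 epithelial markers, Krt19 rose from between 0.455 and 1.04 CPM to between 20.6 and 23.9 CPM, while Epcam and Cdh1 had at most 1 count in any sample. The 5 endothelial markers summed to 12.4 to 17.4 CPM in normoxic and 19.7 to 27.9 CPM in hypoxic samples, and Tek and Vwf were higher and Kdr lower. The part of these cell type markers in the ribosomal protein results was not tested. In bulk RNA, fewer cells of a type and less RNA per cell cannot be told apart. The labels do not say that replicates came from separate cultures, so p-values measure the spread between these samples only.

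The relative amount of ribosomal protein mRNA differed between 21% and 1% O2 by less than the spread between replicates. Its share of all counts was 3.8%, 4.04% and 3.84% at 21% O2 and 3.83%, 4.12% and 3.79% at 1% O2, which is 3.89% ± 0.131 against 3.91% ± 0.18 (SD, n = 3 per group). The groups overlapped. The counts on small subunit genes divided by those on large subunit and stalk genes gave a ratio between 0.727 and 0.732 in all 6 samples. Within each group the replicate numbered 2 was the highest, and hypoxic replicate 2 had the highest level of its group for 76 of the 77 components, normoxic replicate 2 for 59. Those same 2 libraries also had the highest summed macrophage markers of their groups, and the part of this in the ribosomal protein levels was not tested.

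Gene by gene, 29 of 82 tested members passed an adjusted p of 0.05 by edgeR's quasi-likelihood test with Benjamini-Hochberg adjustment over all genes, against 62.7% of all genes tested. Of these members 15 were higher at 1% O2 and 14 were lower, where 31.8% of all genes were higher and 31.0% lower. At the threshold of 1.5-fold and adjusted p, which 34.2% of all genes met, 0 members were called higher (18.9% of all genes) and 2 were called lower (15.3% of all genes), both of them paralog copies. The samples of both conditions did not overlap for 41 members (68.9% of all genes), 26 with higher hypoxic values (34.9%) and 15 with lower ones (34.0%). Among the 77 components alone, 15 were higher, 11 were lower and 51 did not pass. Their log2 fold changes ran from -0.47 for Rpl41 to 0.30 for Rps27, with a median of 0.05 and an SD of 0.16 across components. All genes tested had a median of -0.00 and an SD of 1.04, and the 2135 genes at or above the level of the lowest component had an SD of 0.76, with 69.7% past the adjusted p. For 76 of the 77 components the 95% interval of the fold change lay inside 1.5-fold in both directions, the exception being Rpl41. The same held for 6622 of the 16207 genes tested and for 1332 of those 2135 genes.

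**Figure D1:**
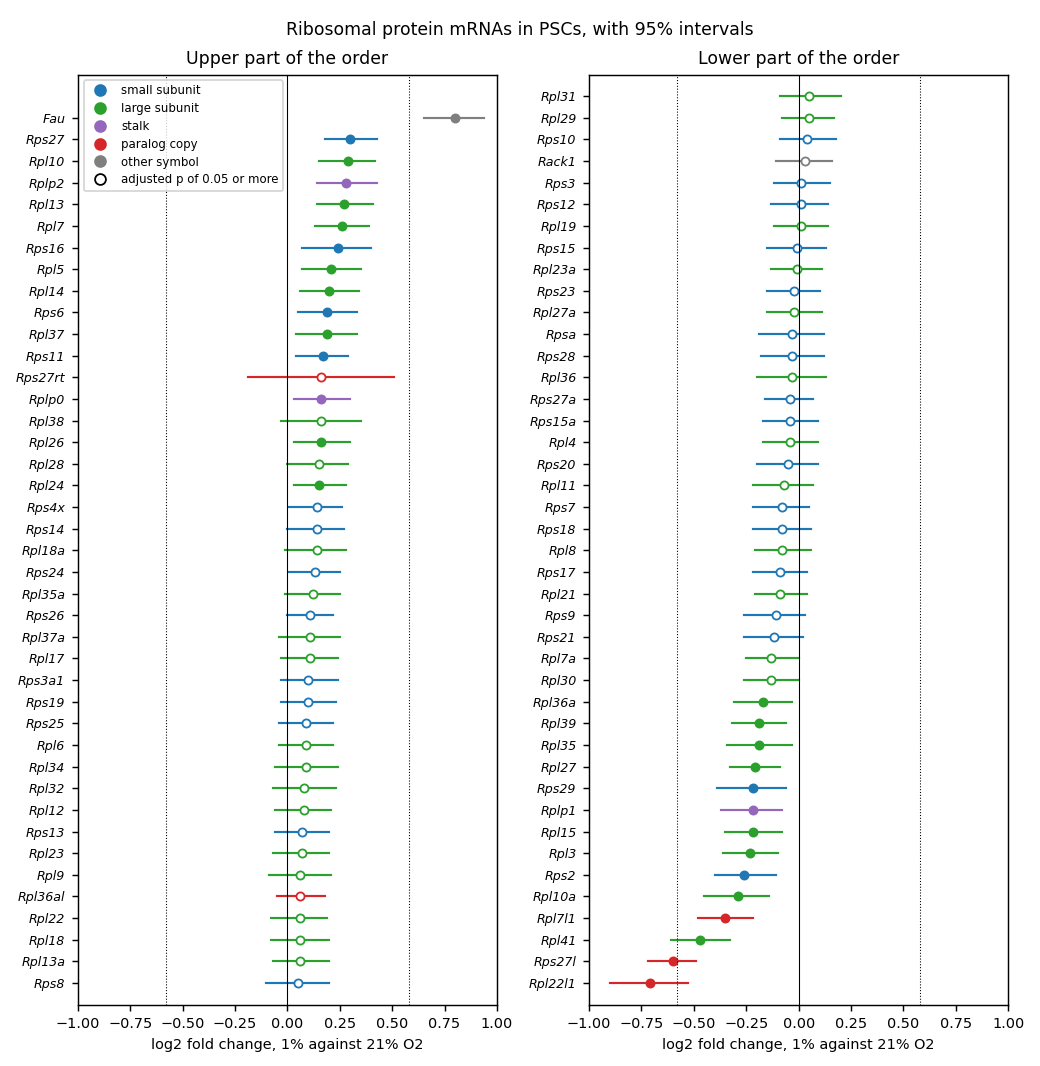
Log2 fold changes at 1% against 21% O2 for 81 of the 82 tested ribosomal protein genes and for Fau and Rack1, which encode ribosomal proteins under other symbols. Horizontal lines are 95% intervals from edgeR, filled points have an adjusted p under 0.05, colors give the group, and dotted lines mark 1.5-fold. All components lie between -0.47 and 0.30, while Rpl22l1 and Rps27l at the lower end and Fau at 0.80 at the upper end lie outside the dotted lines.

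These counts moved with the processing. Upper-quartile scaling gave 10 members higher and 16 lower, where 30.4% and 32.6% of all genes were, and total-count scaling gave 11 and 16 (30.7% and 32.2% of all genes). Without a filter on low counts 10 were higher and 14 lower (19.6% and 19.6% of all genes), and with counts of similar pseudogene rows added 11 were higher and 19 lower (31.9% and 31.8% of all genes). Short genes fell relative to long ones in this comparison, with a median log2 fold change of -0.22 over the 2304 tested genes with transcripts under 1 kb, of which 19.6% were higher and 35% lower. Of the 77 components 60 are that short, and their median was 0.04. In a fit with offsets for gene length, 50 members were higher and 5 lower, with a median of 0.21, beside 31.1% of all genes higher and 31.1% lower. In that fit 1 member (Rps27) passed the 1.5-fold threshold upward and 0 passed it downward. With 1 library left out, the number higher fell to 6 without hypoxic replicate 2, 7 without normoxic replicate 1 and 8 without normoxic replicate 3. The number lower fell to 9 without hypoxic replicate 1 and 8 without hypoxic replicate 3. The share of all genes was not counted for these fits, nor at 1.5-fold with length offsets. These numbers therefore do not show whether the members lost more calls than genes did in general.

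**Figure D2:**
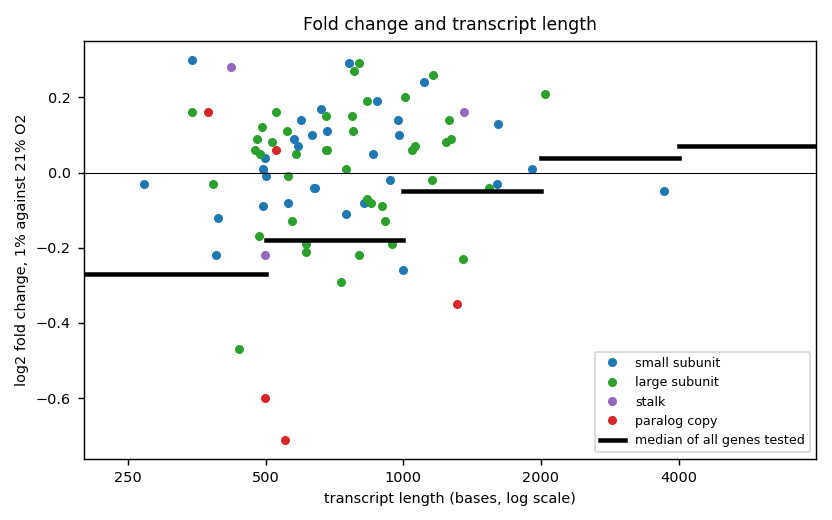
Log2 fold change at 1% against 21% O2 of the 82 tested ribosomal protein genes against transcript length on a log scale, each point a gene. Black lines are the medians of all genes tested in each length band, from -0.27 under 500 bases to 0.07 from 4000 bases. Most components lie above the line of their band. Genes below it include Rpl22l1, Rps27l, Rpl41, Rpl7l1, Rpl10a and Rpl3.

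Each group of the ribosome is read against the 31.8% of all genes that were higher and the 31.0% that were lower. In the small subunit 5 of 31 genes were higher and 2 were lower, with a median log2 fold change of 0.01. In the large subunit without its stalk 8 of 43 were higher and 8 were lower, with a median of 0.06. With gene length offsets these counts were 19 higher and 0 lower in the small subunit (median 0.22) and 27 higher and 2 lower in the large subunit (median 0.20). All 3 stalk genes passed the adjusted p, 2 upward and 1 downward. Of the 5 tested paralog copies 3 were lower and 0 were higher, with a median of -0.35, and with gene length offsets 3 were lower and 2 were higher. Components whose genes hold snoRNA genes in their introns counted 7 higher and 3 lower of 30, and the other 47 counted 8 and 8.

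The highest fold change of a component belonged to Rps27, which encodes a zinc-finger protein of the small subunit (chr3:90212522-90213651, minus strand). Its levels were 253, 261 and 273 CPM in normoxic and 318, 335 and 317 CPM in hypoxic samples. The hypoxic values were all higher and the groups did not overlap, with a log2 fold change of 0.30 ± 0.06 (SE) and an adjusted p of 0.00121. Rpl10, which joins the large subunit late in its maturation and is encoded on the X chromosome, was at 439, 459 and 451 CPM against 528, 577 and 538 CPM, without overlap, with a log2 fold change of 0.29 ± 0.06 (adjusted p = 0.0022). Rpl13 and Rpl7 of the large subunit rose by 0.27 and 0.26 on the log2 scale. Rps27, Rpl10, Rpl13 and Rpl7 each remained past the adjusted p in all 21 alternative fits.

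The lowest component was Rpl41, which encodes the smallest ribosomal protein, a short basic peptide that lies between the subunits. Rpl41 (chr10:128548114-128549305, minus strand) was at 480, 504 and 508 CPM in normoxia and at 350, 383 and 346 CPM in hypoxia. The groups were well apart, with a log2 fold change of -0.47 ± 0.06, a 95% interval of -0.61 to -0.33 and an adjusted p of 0.00016. With offsets for gene length the log2 fold change was -0.22 (adjusted p = 0.0375). Rpl10a, the protein of the mobile L1 stalk next to the exit site of tRNAs, was at 404, 451 and 432 CPM against 340, 376 and 334 CPM, without overlap, and fell by 0.29 on the log2 scale (adjusted p = 0.00475). Rps2 at the mRNA entry channel and Rpl3 near the peptidyl transferase center fell by 0.26 and 0.23. Rps29 fell by 0.22, although its highest hypoxic value of 160 CPM overlapped its lowest normoxic value of 159 CPM, and with gene length offsets its log2 fold change was 0.05. Rps29 also did not pass without hypoxic replicate 1 or 3 or normoxic replicate 3 (adjusted p up to 0.1). Rpl10a and Rps2 did not pass with gene length offsets (adjusted p = 0.18 and 0.107), and Rpl41 and Rpl3 passed in all 21 alternative fits. Rpl3, Rps2 and Rpl10a overlap a gene on the other strand, and the strand setting of the counting is not given in the sources used here. Of all members, 24 overlap a gene on the other strand, Rpl5, Rpl7l1, Rpl15 and Rpl35 among them. A gene on the same strand overlaps 6 members, among them Rpl13, Rpl13a and Rpl36al.

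**Figure D3:**
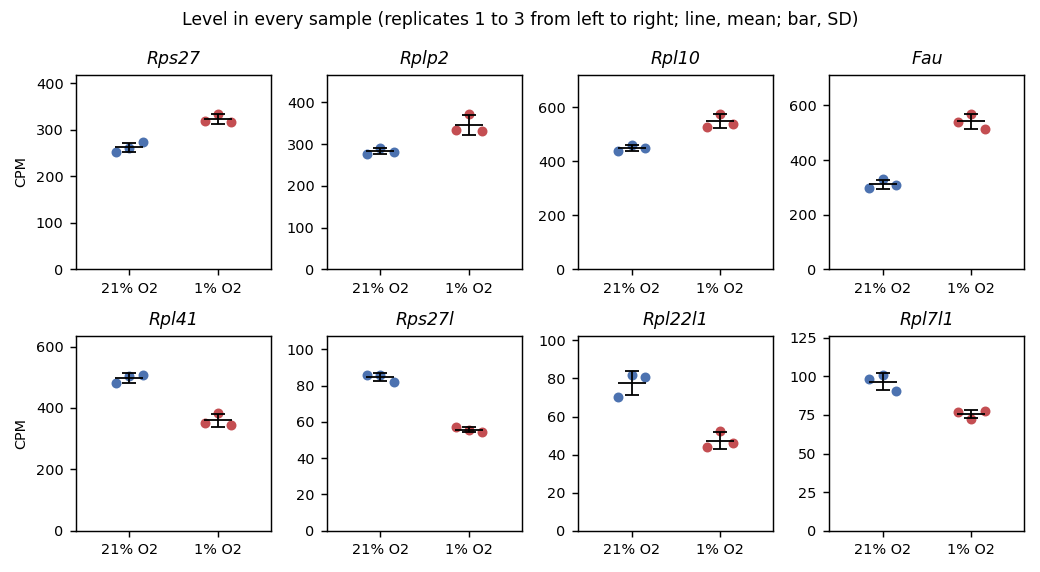
Level in CPM in every sample for 8 genes, with the axis of each panel starting at 0. Points are the replicates of 21% O2 (blue) and 1% O2 (red), lines are group means and bars are SDs. In each panel the 3 points of one group lie above the 3 points of the other.

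The stalk of the large subunit is formed by Rplp0, which anchors pairs of the acidic proteins Rplp1 and Rplp2. Its genes moved in opposite directions. Rplp2 was at 277, 291 and 282 CPM in normoxia and 333, 373 and 331 CPM in hypoxia, so that all hypoxic values were the higher ones (log2 fold change 0.28 ± 0.06, adjusted p = 0.00341). Rplp1 was at 897, 963 and 954 CPM against 795, 852 and 763 CPM, and all hypoxic values were the lower ones (-0.22 ± 0.07, adjusted p = 0.0146). Rplp0, at 1288, 1288 and 1263 CPM against 1447, 1467 and 1382 CPM, was higher without overlap at 0.16 ± 0.06, with an adjusted p of 0.0367, and it passed in 12 of 21 alternative fits, those that left out hypoxic replicate 1 or 2 or normoxic replicate 1 or 3 not among them. The fall of Rplp1 did not pass without hypoxic replicate 1 or 3 (adjusted p up to 0.0641) or with gene length offsets, where its log2 fold change was 0.01, and those of Rplp2 and Rplp0 were 0.54 and 0.23. Within a sample, there were 324, 330 and 338 counts of Rplp1 per 100 of Rplp2 in normoxia and 238, 229 and 231 in hypoxia. The ratio was thus lower in every hypoxic sample, by 0.51 on the log2 scale. Rplp0 per 100 of Rplp2 was at 464, 442 and 447 against 434, 394 and 418, also without overlap.

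A few members are known for roles of their own. Rps6, the small subunit protein phosphorylated by S6 kinase, rose by 0.19 ± 0.06 (adjusted p = 0.0237), from 590, 631 and 601 CPM to 682, 736 and 664 CPM. Rpl5 and Rpl11, which with the 5S rRNA form the particle that binds Mdm2 when ribosome assembly is disturbed, had log2 fold changes of 0.21 (adjusted p = 0.0135) and -0.07 (adjusted p = 0.356). Pseudogene rows similar to Rpl5 held 42.6% of the counts of Rpl5 and those rows together, and its log2 fold change with these rows added was 0.23. Rpl5 did not pass without hypoxic replicate 2 (adjusted p = 0.0505), and Rps6 did not pass without that library, normoxic replicate 1 or normoxic replicate 3 (adjusted p up to 0.091). Rps27a, which encodes ubiquitin fused to a small subunit protein, and Rpsa, also known as the laminin receptor, were at -0.04 and -0.03 and did not pass. Rpl13a, whose protein leaves the ribosome in activated myeloid cells to repress translation of inflammatory mRNAs, was at 1462, 1464 and 1409 CPM against 1514, 1562 and 1455 CPM, with overlapping groups and a 95% interval of -0.07 to 0.20. Rps19, the gene most often mutated in Diamond-Blackfan anemia, was at 0.10 with an interval of -0.03 to 0.23. Rps25 and Rpl38, which are tied to the translation of particular mRNAs, were at 0.09 and 0.16 and did not pass either. Of the X-linked members, Rpl36a and Rpl39 fell by 0.17 and 0.19, Rpl10 rose, and Rps4x was at 0.14 with an adjusted p of 0.0526. With the replicate block Rps4x passed (adjusted p = 0.0464), and it passed in 7 of 21 alternative fits. With gene length offsets Rpl36a and Rpl39 were at 0.07 and 0.01 and did not pass. Without hypoxic replicate 1 or 3 neither passed. Rpl36a also did not pass without normoxic replicate 1 or 3 (adjusted p up to 0.13) or with GC content offsets (adjusted p = 0.0768). In all, Rpl36a passed in 13 of 21 alternative fits. In the fit with length offsets Rpl38 (0.45), Rps25 (0.30), Rps19 (0.29), Rps4x (0.27), Rpl13a (0.18) and Rps27a (0.15) passed upward, with adjusted p-values of 0.00519, 0.00589, 0.00259, 0.0026, 0.0284 and 0.0394.

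The 2 members called at 1.5-fold, Rpl22l1 and Rps27l, are paralog copies whose coding sequences differ from those of their partners. The first 60 coding bases of Rps27, of its diverged copy Rps27l and of the retrocopy Rps27rt, from the GENCODE M21 transcripts, are shown because reads can be assigned to a copy only where such bases differ. Capitals mark bases that differ from Rps27.
Rps27: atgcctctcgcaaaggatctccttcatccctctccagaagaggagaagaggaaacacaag
Rps27l: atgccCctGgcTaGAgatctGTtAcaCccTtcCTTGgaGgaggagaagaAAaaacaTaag
Rps27rt: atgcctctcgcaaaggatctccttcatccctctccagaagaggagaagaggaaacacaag
Rps27l differed from Rps27 at 61 of 255 coding bases, and Rps27rt at 0 of 255. For Rpl22 and Rpl22l1 the first 60 bases of their aligned coding sequence without a gap, coding bases 68 to 127 of Rpl22 and 53 to 112 of Rpl22l1, are given in the same way, with capitals for bases that differ from Rpl22.
Rpl22: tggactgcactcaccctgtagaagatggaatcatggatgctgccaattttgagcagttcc
Rpl22l1: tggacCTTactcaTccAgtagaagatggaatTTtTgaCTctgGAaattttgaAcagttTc

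Rpl22l1 lies at chr3:28805436-28807424 on the plus strand and encodes a homolog of Rpl22, a large subunit protein that is known to restrain expression of this copy. Its levels were 70.3, 81.9 and 80.7 CPM in normoxia and 43.9, 52.2 and 45.9 CPM in hypoxia. All hypoxic samples were below all normoxic samples, with a log2 fold change of -0.71 ± 0.08 (95% interval -0.90 to -0.53, adjusted p = 7.68e-05). The partner Rpl22 was at 225, 231 and 230 CPM against 231, 254 and 228 CPM, with overlapping groups and a log2 fold change of 0.06 (adjusted p = 0.428). Per 100 counts of Rpl22 there were 31.3, 35.4 and 35.1 counts of Rpl22l1 in normoxia and 19, 20.6 and 20.1 in hypoxia. With gene length offsets Rpl22l1 was at -0.50 (adjusted p = 0.0013), which is past the adjusted p and short of 1.5-fold, and Rpl22 was at 0.29 (adjusted p = 0.00749). Rpl22l1 overlaps the gene Gm33051 on the other strand.

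Rps27l lies at chr9:66946086-66949516 on the plus strand, and its human counterpart is a known target of p53. It was at 85.9, 85.7 and 81.9 CPM in normoxia and at 57.2, 55.5 and 54.3 CPM in hypoxia. The groups were far apart for their small spread, with a log2 fold change of -0.60 ± 0.05 (95% interval -0.72 to -0.49, adjusted p = 1.15e-05). As Rps27 itself was the component that rose most, Rps27l went from 33.9, 32.8 and 30 counts per 100 of Rps27 to 18, 16.6 and 17.1, a log2 change of -0.90. With gene length offsets Rps27l was at -0.37 (adjusted p = 0.000725), and with GC content offsets at -0.57, both short of 1.5-fold. The intronless Rps27rt held 2.25 to 3.26 counts per 100 of Rps27 over all 6 samples. Its transcript of 374 bases matched that of Rps27 over 341 bases without a difference. Reads within that stretch cannot be told from reads of Rps27. The log2 fold change of Rps27rt was 0.16 (adjusted p = 0.395), and 0.44 with gene length offsets (adjusted p = 0.0152).

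Rpl7l1, a relative of Rpl7 with no blastn match to the Rpl7 transcript, fell by 0.35 on the log2 scale, from 98.2, 101 and 90.7 CPM to 77, 72.6 and 77.4 CPM, without overlap (adjusted p = 0.000681). Rpl7 had risen, and the ratio of Rpl7l1 to Rpl7 was lower by 0.61 on the log2 scale. Rpl36al, at 100, 108 and 104 CPM against 108, 108 and 109 CPM, did not pass (log2 fold change 0.06, adjusted p = 0.325), and with gene length offsets it was higher at 0.28 (adjusted p = 0.00271). Its ratio to Rpl36a was higher in all hypoxic samples, at 54.1, 58.4 and 54.5 per 100 against 66.6, 60.5 and 69.3. Rpl3l, known from striated muscle, had 0 to 2 counts in a library, Rpl39l had 0 to 3, and Rpl10l, known from testis, had 0 in all 6 libraries, where up to 3 counts per library could have been missed. These 3 copies were not tested.

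For 7 pairs of genes chosen after their levels were seen, the ratio within a sample was compared with a two-sided exact permutation test. In 6 pairs the groups did not overlap and p was 0.1, the smallest that 3 against 3 samples can give (0.117 after adjustment over the 7 pairs), and for Rps27rt and Rps27 it was 0.7. None of the ratios could therefore pass 0.05 by this test.

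**Figure D4:**
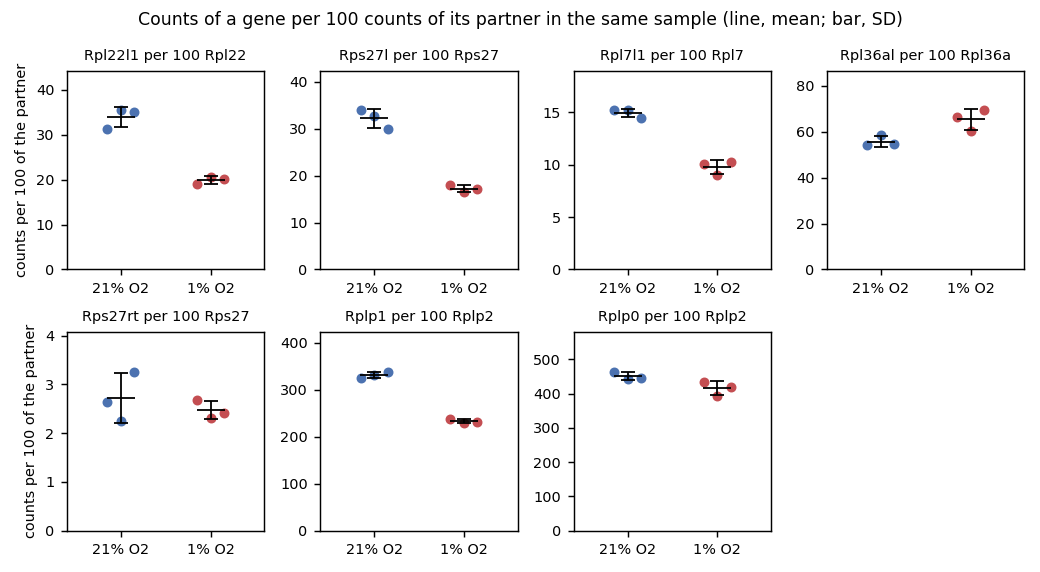
Counts of a gene per 100 counts of its partner in the same sample for 7 pairs, with axes starting at 0. Points are replicates 1 to 3 of 21% O2 (blue) and 1% O2 (red), lines are means and bars are SDs. Rpl22l1, Rps27l, Rpl7l1, Rplp1 and Rplp0 were lower and Rpl36al was higher relative to their partners in every hypoxic sample, and Rps27rt overlapped.

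Ribosomal proteins encoded under other symbols included Fau, whose log2 fold change was above that of any member. Fau (chr19:6057844-6059524, plus strand) encodes the small subunit protein eS30 fused to a ubiquitin-like protein. It was at 298, 330 and 307 CPM in normoxia and 538, 570 and 515 CPM in hypoxia. The hypoxic samples were all far above the normoxic ones, with a log2 fold change of 0.80 ± 0.06 (95% interval 0.65 to 0.94, 1.74-fold, adjusted p = 8.91e-06), and it was between 0.75 and 1.04 in the alternative fits. Rack1, a scaffold protein on the small subunit, was at 0.03 (adjusted p = 0.728).

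The TOP motif was looked for in RefSeq windows on GRCm38.p6, as a C at the annotated start site followed by 4 or more bases that are C or T, on the strand of the gene. It was present for 13 of the 57 components with a window (22.8%) and for 813 of 27025 genes (3.01%). Against 31.8% of all genes higher and 31.0% lower, 4 of the 13 components were higher and 2 were lower, with a median log2 fold change of 0.12, a share higher that is near that of all genes. Of the 44 without it 8 were higher and 6 were lower, with a median of 0.06. Windows of 30 bases, 10 before the start site and 20 from it, are shown for genes on both sides of the comparison, with the run of pyrimidines from the start site in capitals.
Fau (chr19:6057937-6057966, plus strand): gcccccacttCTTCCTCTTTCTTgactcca
Rps27 (chr3:90213629-90213658, minus strand): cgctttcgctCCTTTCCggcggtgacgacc
Rplp2 (chr7:141447641-141447670, plus strand): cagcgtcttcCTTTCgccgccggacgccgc
Rps6 (chr4:86857348-86857377, minus strand): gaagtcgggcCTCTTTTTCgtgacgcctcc
Rack1 (chr11:48800350-48800379, plus strand): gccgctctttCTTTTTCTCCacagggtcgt
Rpl35 (chr2:39005112-39005141, minus strand): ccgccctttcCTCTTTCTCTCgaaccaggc
Rpl15 (chr14:18270967-18270996, minus strand): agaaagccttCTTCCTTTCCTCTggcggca
Rpl22l1 (chr3:28805498-28805527, plus strand): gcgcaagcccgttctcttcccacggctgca
Rpl41 (chr10:128549149-128549178, minus strand): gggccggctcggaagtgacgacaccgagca
Fau and Rpl15 both started with a run of 13 pyrimidines, and Fau rose by 0.80 while Rpl15 fell by 0.22 on the log2 scale. Rps27, Rplp2 and Rps6, with runs of 7, 5 and 9, were higher, Rpl35 with a run of 11 was lower, and Rack1 with a run of 10 did not pass. Neither Rpl15 nor Rpl35 passed with gene length offsets (-0.06 and -0.05, adjusted p = 0.452 and 0.52), and Rpl35 passed in 2 of the 6 fits that left out 1 library. Rpl22l1 and Rpl41 had no such run at the annotated start. The search read only the annotated start, and a start a few bases away would be missed.

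Within the components, levels per length were compared over both groups. By CPM per kilobase of the principal transcript, levels ran from 90.8 for Rps20 to 1745 for Rplp1, with a median of 602. By the union of all exons of a gene the median was 249, Rplp1 was again the highest gene, and the ranks by both lengths had a Spearman correlation of 0.60 over 77 genes. The place of most components in this order thus depended on the length used. Across the 77 components, which share libraries, the log2 fold change had a Pearson correlation of 0.10 with log2 transcript length, -0.17 with GC content and 0.07 with log2 level.

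Genes that assemble ribosomes and run translation were counted in the same way, from lists of such genes, beside 31.8% of all genes higher and 31.0% lower. Of 56 ribosome biogenesis factors 26 were lower (46.4%) and 10 were higher (17.9%), with a median log2 fold change of -0.13. At 1.5-fold 7 of them were called lower and 0 higher, where 15.3% of all genes were called lower. Dkc1, the pseudouridine synthase of rRNA, had the lowest value, with 33.8, 38 and 29.7 CPM against 17.6, 16 and 15.5 CPM, no overlap and a log2 fold change of -1.05 ± 0.10 (adjusted p = 1.94e-05). Sbds, which helps to release a factor from the nascent large subunit, had the highest at 0.50 ± 0.06 (adjusted p = 8.03e-05). The RNA polymerase I list counted 4 higher (33.3%) and 5 lower (41.7%) of 12, from -0.48 for its subunit gene Polr1e (adjusted p = 0.00902) to 1.12 for the initiation factor gene Taf1a (adjusted p = 1.51e-05).

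Of 37 translation initiation factors 6 were higher (16.2%) and 15 lower (40.5%), with a median of -0.08. Eif1b, which encodes a close relative of the start codon selection factor eIF1, rose from 33, 32.9 and 31.8 CPM to 80.6, 81.4 and 77 CPM (log2 fold change 1.29 ± 0.05, adjusted p = 1.58e-07), and was the single initiation factor called at 1.5-fold. Eif2s1, the eIF2 subunit whose phosphorylation slows initiation, fell by 0.44 on the log2 scale (adjusted p = 0.000285). Of 12 elongation and release factors 9 were lower (75%) and 1 was higher (8.33%), with a median of -0.26. Eef1a2 fell by 1.11 (adjusted p = 6.49e-05), and Eef2, the translocation factor and the gene that was higher, was at 0.21 (adjusted p = 0.0237), and at 0.16 with gene length offsets (adjusted p = 0.0785).

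Of 8 other mRNAs known for a TOP motif 2 were higher (25%) and 3 lower (37.5%), from -0.24 for Naca (adjusted p = 0.0035) to 0.46 for Pabpc1, which encodes the poly(A)-binding protein (adjusted p = 0.000579). Of 15 tested regulators of TOP mRNAs and of transcription of ribosomal protein genes 5 were higher (33.3%) and 4 lower (26.7%), near the shares over all genes. Tial1, which binds TOP mRNAs during amino acid starvation, rose from 67.2, 87.9 and 77.3 CPM to 155, 146 and 168 CPM, without overlap, at 1.01 ± 0.10 (adjusted p = 2.27e-05). Rps6kb1, the S6 kinase gene, fell by 0.32 (adjusted p = 0.00111), and Myc, an activator of ribosome biogenesis genes, fell by 0.25 (adjusted p = 0.0377) with overlapping groups. Of 78 mitochondrial ribosomal protein genes 51 were lower (65.4%) and 5 higher (6.41%), with a median of -0.32. With gene length offsets the medians were -0.19 for biogenesis factors, -0.27 for elongation and release factors and -0.25 for mitochondrial ribosomal proteins, beside 0.22 for the components of the cytosolic ribosome. A difference between the lists was not tested.

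**Figure D5:**
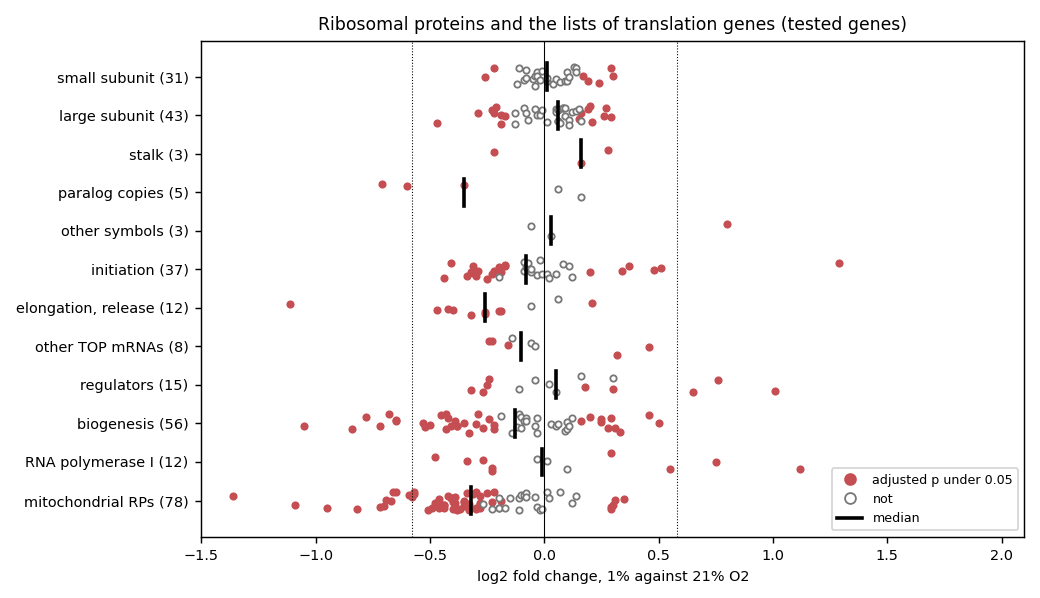
Log2 fold changes at 1% against 21% O2 of the tested genes in each group of ribosomal proteins and in each list of translation genes, with the number tested in brackets. Red points have an adjusted p under 0.05, open points do not, black bars are medians and dotted lines mark 1.5-fold. Components of the small and large subunits lie within the dotted lines with medians of 0.01 and 0.06, and the lists of elongation factors, biogenesis factors and mitochondrial ribosomal proteins have medians of -0.26, -0.13 and -0.32.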

How the data were processed

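RNA-seq was performed on 3 normoxic and 3 hypoxic PSC samples. According to the methods, the authors prepared poly(A) libraries, trimmed adapters with Cutadapt and mapped reads to GRCm38 with STAR (2.6.1b), and they deposited RSEM (1.3.1) expected counts per gene, not normalized between samples. None of these expected counts had a fraction (0 values). RSEM divides reads shared by similar genes by an estimate. The annotation release and strand setting are not given in the sources used here. In GENCODE M21, 55240 identifiers were found and 186 were not.

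edgeR (4.0.16) was used with filterByExpr, TMM scaling and its quasi-likelihood test, and p-values were adjusted by the Benjamini-Hochberg method over 16207 genes. Calls at 1.5-fold and an adjusted p under 0.05 follow the methods. CPM are counts scaled to the TMM-adjusted library size. No design block was used. Transcript lengths are those of the principal GENCODE transcript. Pseudogene rows were matched with blastn (2.17.0) at 90% identity over 100 bases. Permutation tests used SciPy (1.17.1). The fits were tested on simulated data. There edgeR called 10 of 100 genes changed by 0.3 on the log2 scale and 79 of 98 changed by 1. It made 9 false calls. The changed genes were drawn from genes of all levels, not from the members. Every component had at least 2174 counts in each library. Replicates differed by 6.08 to 23.6 chi-square units per degree of freedom, more than sampling noise, and each was counted as its own sample.

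Genes named are the 5 highest and 5 lowest components, all paralog copies with their partners, members of known special role, Fau and Rack1, and the highest and lowest gene of each translation list, with Myc. Rpl35 and Rpl15 were added for their start sites after their values were seen. A few items that the rule also names are not reported here. The members and lists were chosen with earlier results of these data known. Alternatives were other scalings, filters and thresholds, DESeq2 (1.42.0), limma-voom, offsets for GC content and gene length, pseudogene rows added, each library left out and the replicate block. DESeq2 with the block, leaving out both libraries numbered 2, and length offsets with the block were added after seeing the data. The qRT-PCR, ELISA and single-cell experiments were not analysed here.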

Additional observations from a re-analysis of the deposited data

How the results depend on the processing

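Over 21 alternative fits, 11 of the 29 members past the adjusted p passed in the same direction each time, among them Rpl22l1, Rps27l, Rpl41 and Rps27. The largest departure came with gene length offsets. In that fit 50 members were higher and 5 lower, where 31.1% of all genes were higher and 31.1% lower. The median log2 fold change of the members was 0.21, and 1 was called higher and 0 lower at 1.5-fold. With length offsets and the replicate block together, the members higher and lower, the median and the 1.5-fold calls were 54, 5, 0.21, 1 and 0. Under length offsets the sign changed for 22 members, 4 of which passed in the new direction (Rpl23a, Rps15, Rps27a and Rps28), and 8 members passed in the opposite direction in any alternative. Among genes named here that passed in either fit, the sign changed for Rpl36a (0.07, and 0.06 with the block), Rpl39 (0.01), Rplp1 (0.01), Rps27a (0.15) and Rps29 (0.05, and 0.04 with the block). With GC offsets 1 member, Rpl22l1, was called lower at 1.5-fold. A threshold of 1.2-fold gave 5 called higher and 5 lower, and 2-fold gave 0 lower. Leaving out 1 library at a time, 6 to 16 members were higher and 8 to 16 lower. Shares of all genes were not counted for those thresholds or for the fits that left out 1 library. They were also not counted for length offsets with the block, or at 1.5-fold with GC or length offsets. The cause of the differences between fits was not tested. The other scalings moved the median of all genes by at most 0.02, and upper-quartile scaling gave 10 members higher and 16 lower. The replicate block gave 17 higher and 14 lower, with all 29 members shared with the fit without the block. The departures of a normoxic and a hypoxic sample from their group means correlated at 0.142, 0.139 and 0.0378 for numbers 1, 2 and 3. Over the members alone these values were 0.268, 0.237 and -0.173. The numbers were not taken as pairing in the main fit. All 6 samples correlated best with their own number, so pairing is not excluded. By the union of exons as the length, the median level of the components was 249 in place of 602. The median standard error of a component's log2 fold change was 0.06, which sets the size of change that could pass at this depth and spread, and a member that did not pass may still have changed.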
